A study of Mus musculus with 16 samples.

Results

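The genes described here are the Wnt ligands, the Frizzled receptors, the secreted Sfrp and Dickkopf antagonists, and 3 genes read out downstream of them, *Axin2*, *Lef1* and *Tcf7*, in mouse embryonic fibroblasts taken through the first days of reprogramming. They were chosen by symbol, as every row of the deposited table whose symbol starts with Wnt, Fzd, Sfrp or Dkk followed by a digit. Those 3 genes were added. The choice was made with earlier results of these data known, and the study had reported higher levels of Wnt growth factor genes in the knockdowns. The counts below are therefore not those of a set chosen blind to the data. The rule was met by 34 of the 18990 genes in the table. The set held 14 Wnt ligands, 10 Frizzled receptors, 3 Sfrp genes, 4 Dickkopf genes and the 3 downstream genes. Of these, 27 passed the filter on low values (a mean of at least 0 on the log2 CPM scale over all 16 libraries, where CPM is the count scaled to library size), together with 14028 genes in all. *Dkk1*, *Sfrp4*, *Wnt2*, *Wnt6*, *Wnt7a*, *Wnt10a* and *Wnt10b* did not, and are given by their reads. *Dkk4*, *Wnt7b* and *Wnt8a* passed only through their day 6 libraries. Sfrp5, Wnt1, Wnt3, Wnt3a, Wnt8b and Wnt9b were not analysed here.

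Wnt proteins are lipid-modified secreted ligands that need a dedicated carrier to leave the cell and that bind Frizzled receptors on the cell surface. In the canonical branch, a Frizzled together with an Lrp co-receptor stops the destruction of beta-catenin, which then enters the nucleus and works through DNA-binding proteins of the Tcf and Lef family, while other ligands act through Frizzled and Ror receptors without beta-catenin. Sfrp proteins carry a Frizzled-like domain and bind Wnts outside the cell, Dickkopf proteins bind the Lrp co-receptors, and *Axin2* is a target that feeds back on beta-catenin. Fibroblasts use Wnts in tissue patterning and repair, and the pathway is known to act on the entry into and the upkeep of pluripotency.

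Primary fibroblasts of wild-type BL6 embryos were transduced with lentiviruses carrying a doxycycline-inducible cassette of Oct4, Sox2, Klf4 and c-Myc (tet-STEMCCA) and the rtTA activator, reverse transfected with 40 nM of pooled siRNAs, replated and induced with doxycycline at 2 ug/mL. RNA was taken at day 3 and day 6. The siRNAs were non-targeting (nt control) or directed against *Wdr5*, a subunit of histone methyltransferase complexes, or *Brca1* or *Bard1*, partners in a ubiquitin ligase of DNA repair. All groups, the nt control included, were kept in medium with 3 uM chiron, an inhibitor of the GSK3 kinases that stabilises beta-catenin below the receptors, with 0.25 uM Alk5i, an inhibitor of TGF-beta receptors, and with ascorbic acid and LIF, so that no group shows the pathway without chiron. Each of the 8 groups had 2 libraries, called replicates 1 and 2, which the study describes as independent experiments, and each was a bulk culture in which only part of the cells reprogram. In bulk RNA, a change in the number of cells of a type and a change in RNA per cell cannot be told apart. The age of the embryos and how many were pooled are not given in the sources used here.

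The libraries held 11169738 to 26832534 reads in genes, so that 3 reads corresponded to 0.115 to 0.260 CPM. At day 3, the targeted genes stood lower in their own libraries, with *Wdr5* at 50.6 and 55.3 CPM against 132 and 130.5 in the nt control, *Brca1* at 37.5 and 19.4 against 82.4 and 78.0, and *Bard1* at 18.01 and 20.8 against 30.5 and 29.1. By day 6 none of the 3 passed the test in its own knockdown (limma adjusted p of 0.189, 0.988 and 0.853). The siBrca1 libraries of day 3 were the most unlike each other of the 4 day 3 pairs, with an SD of 0.415 for the log2 difference between replicates over all genes against 0.264 to 0.331 in the other pairs, and the siBrca1 pair of day 6, at 0.439, was the most unlike of all 8. Fibroblast markers were present on both days. Epithelial markers (7 of 7 tested) summed to 74.1 to 94.0 CPM in the nt control at day 3 and 592 to 793 at day 6, and pluripotency markers (5 of 7 tested) to 7.30 to 9.89 and 154 to 166. In the nt control at day 3, *Esrrb*, *Zfp42*, *Utf1* and *Dppa5a* had 3 reads or fewer in both libraries.

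The 6 members that passed the test in the same direction in all 3 knockdowns at day 3 were *Wnt4*, *Wnt5a*, *Wnt9a*, *Fzd7*, *Fzd9* and *Lef1*, and the stretches around their transcription starts are shown because these members were called in every knockdown, 4 of them higher and 2 lower. The share of all genes called the same way in all 3 was not computed, so whether 6 is many is not known. The knockdowns share their controls, and without nt control replicate 1 the siBard1 call remained for *Wnt5a* and was lost for the other 5. RefSeq (GRCm38.p6) gave a window from 250 bases before to 50 bases after the start for 22 of the 34 members. Of the 6, all but *Wnt5a* had one. The windows lie at chr1:59481897-59482196 on the plus strand for *Fzd7*, at chr5:135250998-135251297 on the minus strand for *Fzd9*, at chr3:131110073-131110372 on the plus strand for *Lef1*, at chr4:137277385-137277684 on the plus strand for *Wnt4* and at chr11:59306680-59306979 on the plus strand for *Wnt9a*. Capitals mark matches to the core motif of Tcf and Lef factors, searched on both strands as CTTTG followed by AA, AT, TA or TT.
Wnt4: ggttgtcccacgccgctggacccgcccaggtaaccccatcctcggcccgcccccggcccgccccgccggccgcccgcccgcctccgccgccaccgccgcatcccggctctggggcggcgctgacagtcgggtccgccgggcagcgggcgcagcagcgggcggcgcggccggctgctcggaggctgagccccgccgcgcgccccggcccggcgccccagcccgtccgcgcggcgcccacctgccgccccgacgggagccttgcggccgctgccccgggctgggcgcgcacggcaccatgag
Wnt9a: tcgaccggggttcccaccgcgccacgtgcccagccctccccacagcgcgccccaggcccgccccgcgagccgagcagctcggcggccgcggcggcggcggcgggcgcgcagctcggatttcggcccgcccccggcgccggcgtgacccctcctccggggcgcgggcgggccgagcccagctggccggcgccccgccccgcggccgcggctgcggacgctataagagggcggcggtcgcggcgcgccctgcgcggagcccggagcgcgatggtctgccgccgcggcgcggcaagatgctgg
Fzd7: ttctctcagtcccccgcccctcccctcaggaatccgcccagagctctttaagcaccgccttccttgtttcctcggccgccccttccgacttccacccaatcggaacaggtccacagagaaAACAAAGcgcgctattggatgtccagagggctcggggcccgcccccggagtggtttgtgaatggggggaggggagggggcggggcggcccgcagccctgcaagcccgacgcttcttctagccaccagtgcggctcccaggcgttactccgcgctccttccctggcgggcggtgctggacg
Fzd9: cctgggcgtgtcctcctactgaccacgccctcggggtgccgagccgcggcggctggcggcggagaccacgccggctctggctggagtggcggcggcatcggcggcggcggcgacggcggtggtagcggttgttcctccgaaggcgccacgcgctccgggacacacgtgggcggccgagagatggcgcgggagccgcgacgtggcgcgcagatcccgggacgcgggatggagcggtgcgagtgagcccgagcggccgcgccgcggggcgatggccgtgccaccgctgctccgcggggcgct
Lef1: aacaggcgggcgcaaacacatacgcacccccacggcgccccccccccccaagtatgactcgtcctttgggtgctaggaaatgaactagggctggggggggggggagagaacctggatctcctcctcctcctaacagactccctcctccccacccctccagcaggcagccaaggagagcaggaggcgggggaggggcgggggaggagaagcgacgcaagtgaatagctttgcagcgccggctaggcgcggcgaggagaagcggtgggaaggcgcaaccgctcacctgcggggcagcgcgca
Among these 5 windows, a single match was found, in *Fzd7*, where AACAAAG is the reverse complement of CTTTGTT. *Lef1* has 4 windows in the table, of which the one nearest the gene start in GENCODE vM21 is shown, and another of them held 1 match. The windows follow RefSeq starts, and those of *Fzd7* and *Lef1* end before the GENCODE gene starts, at 59482424 and 131110471. The motif was present in 16.9% of all 32851 windows and in 17.2% of the 29 windows of members. The windows of *Wnt4*, *Wnt9a* and *Fzd9* were rich in CpG, with 51, 58 and 53 CG pairs in 300 bases against a median of 7 over all windows and 24 over those of members.

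Per kilobase of exon, the antagonist *Sfrp1* was the most abundant member in every group, at 64.6 ± 5.10 CPM per kb among day 3 controls (means ± SD of n = 2 libraries) and 131 ± 7.58 in siWdr5. Among receptors, *Fzd7* and *Fzd1* led the nt control at day 3, at 19.9 ± 0.0297 and 18.3 ± 0.361, followed by *Fzd5* at 10.0 ± 0.212 and *Fzd2* at 8.88 ± 0.227. *Fzd1* and *Sfrp2*, the next antagonist at 18.04 ± 0.559, did not differ beyond their spread. The leading ligands were *Wnt5a* at 5.57 ± 0.223 and *Wnt4* at 4.45 ± 0.863. Summed over the family, the ligands stood at 16.8 ± 1.26 CPM per kb in the nt control at day 3, 24.4 ± 2.26 in siBard1, 31.3 ± 1.36 in siBrca1 and 35.2 ± 1.04 in siWdr5. Much of this sum was *Wnt4* and *Wnt5a*, at 26.3% and 33.2% of it in the nt control and 44.4% and 33.0% in siWdr5. The Frizzled sum was 67.5 ± 1.53 in the nt control, 76.2 ± 9.75 in siBard1, 93.1 ± 4.76 in siBrca1 and 92.6 ± 2.55 in siWdr5. Sfrp genes summed to 82.8 ± 5.69, 105 ± 3.44, 99.8 ± 24.7 and 170.2 ± 9.36 in the same order, while the sum of *Axin2*, *Lef1* and *Tcf7* spanned 8.16 ± 0.0391 in siWdr5 to 10.96 ± 1.92 in siBrca1.

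**Figure D1:**
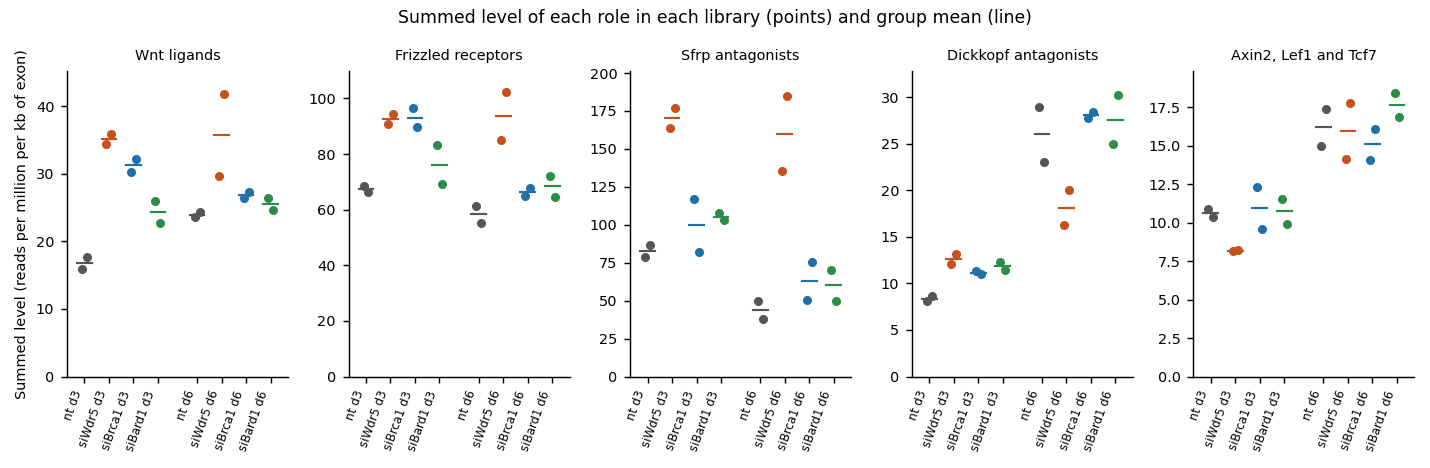
Summed level of the members of each role, in CPM per kilobase of exon, in each library (points) with the group mean (lines), for nt control, siWdr5, siBrca1 and siBard1 at day 3 and day 6. At day 3 both libraries of every knockdown lie above both nt control libraries for the ligands, whose group means run from 16.8 in the nt control to 35.2 in siWdr5, and the Sfrp sum of siWdr5 lies above all other groups on both days.

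The first comparison asks how the members stood at day 3 in each knockdown, where the targeted RNA was lowered but not absent. The study also reported lower *Brca1* and *Bard1* after *Wdr5* knockdown, and lower *Wdr5* after knockdown of either. With siWdr5, 11 of the 27 members tested rose and 4 fell (40.7% and 14.8%), against 18.3% and 16.8% of all genes tested. With siBrca1, 9 rose and 4 fell (33.3% and 14.8%), against 25.4% and 21.8% of all genes. In both directions together, siBrca1 had 13 members called (48.1%) and 6620 of all 14028 genes, so that the members lay near the share of all genes. With siBard1, 5 rose and 3 fell (18.5% and 11.1%), against 8.67% and 5.87% of all genes. The median log2 difference of the members was 0.29 with siWdr5, 0.21 with siBrca1 and 0.13 with siBard1, against −0.04, 0.00 and −0.02 over all genes. The 3 comparisons share the same nt control libraries, so their calls are not independent of each other. The siBard1 count rested on few libraries: it fell to 1 member without nt control replicate 1, to 3 without nt control replicate 2 and to 3 without siBard1 replicate 1. The siWdr5 count was 8 without nt control replicate 1 and 9 without siWdr5 replicate 2, and the siBrca1 count was 15 and 13 without siBrca1 replicate 1 and 2. Fibroblast markers moved in the same libraries, with 6 of 7 higher in siWdr5, 5 of 7 in siBrca1 and 0 of 7 in siBard1, and a summed level of 7699.8 to 8695 CPM in the nt control, 13609.7 to 14123 in siWdr5, 11519 to 12665 in siBrca1 and 9607 to 11179.9 in siBard1. The 5 proliferation markers all fell in siWdr5 and siBrca1 and summed to 1014 to 1015 CPM in the nt control, 588 to 640.3 in siWdr5, 309 to 579 in siBrca1 and 832 to 921 in siBard1. Of 4 skeletal muscle markers, *Myod1* and *Myog* were not among the deposited genes. *Acta1* and *Des* passed the filter and both rose in all 3 knockdowns. Together they summed to 40.2 to 52.0 CPM in the nt control, 186 to 188 in siWdr5, 251 to 276 in siBrca1 and 112 to 143 in siBard1. Of epithelial markers, *Epcam*, *Cdh1* and *Krt8* fell and *Krt19* rose with siWdr5, *Epcam* and *Cdh1* fell and *Krt18* and *Krt19* rose with siBrca1, and *Krt19* rose with siBard1. The pluripotency marker *Sall4* fell in all 3. Macrophage markers *Csf1r*, with siWdr5 and siBrca1, and *Cd68*, with siBrca1, rose among 3 tested, at sums of 6.501 to 7.45 CPM in the nt control, 11.3 to 13.4 in siWdr5, 15.6 to 16.7 in siBrca1 and 7.38 to 8.13 in siBard1. No fibroblast or proliferation marker had 3 reads or fewer in both libraries of a group, and the part of these lists in the members' changes was not tested.

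**Figure D2:**
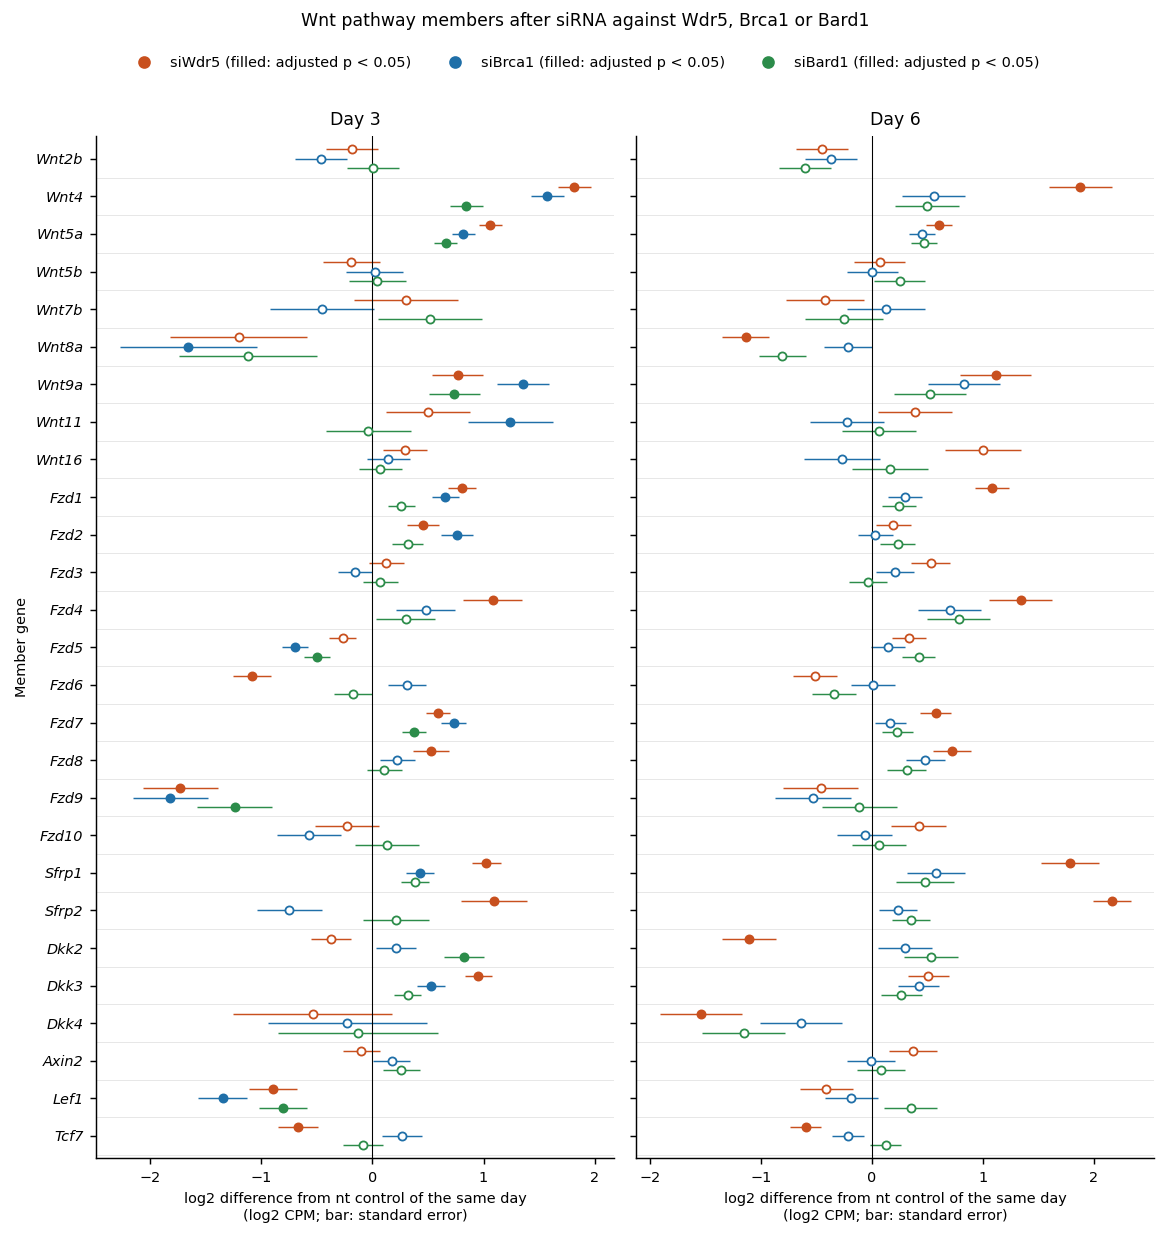
Difference from the nt control of the same day on the log2 CPM scale (x axis) for the 27 members tested (y axis), at day 3 (left) and day 6 (right), for siWdr5, siBrca1 and siBard1, with standard errors as bars and filled points at an adjusted p under 0.05. At day 3 the 3 knockdowns share filled points for *Wnt4*, *Wnt5a*, *Wnt9a*, *Fzd7*, *Fzd9* and *Lef1*, and at day 6 only siWdr5 has filled points.

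Among the 9 ligands tested, 3 rose and 0 fell with siWdr5, 4 rose and 1 fell with siBrca1, and 3 rose and 0 fell with siBard1, where 18.3%, 25.4% and 8.67% of all genes rose. *Wnt4*, a ligand of kidney and gonad development (chr4:137277489-137299726, GRCm38), stood at 16.2 and 21.4 CPM in the nt control, 34.8 and 32.1 in siBard1, 49.6 and 62.0 in siBrca1 and 63.3 and 67.8 in siWdr5. Every knockdown library lay above both controls, and the siWdr5 libraries were the highest. Its log2 difference was 1.82 ± 0.15 (SE) with siWdr5 (limma adjusted p = 3.74e-06), 1.57 ± 0.15 with siBrca1 (adjusted p = 5.51e-06) and 0.85 ± 0.15 with siBard1 (adjusted p = 0.00268), or 3.52-, 2.98- and 1.80-fold. *Wnt5a*, the main ligand of the branch that works without beta-catenin (chr14:28504750-28527448), was measured at 44.9 and 42.5 CPM in the nt control, 72.0 and 66.0 in siBard1, 78.1 and 75.7 in siBrca1 and 89.4 and 92.6 in siWdr5. The replicates lay close together and no knockdown library reached the control range, with log2 differences of 1.06 ± 0.10 for siWdr5 (limma adjusted p = 1.12e-05), 0.82 ± 0.10 for siBrca1 (adjusted p = 4.31e-05) and 0.66 ± 0.10 for siBard1 (adjusted p = 0.00145). A gene on the opposite strand covers 4.58% of its exon bases, and its reads cannot be told apart from those of *Wnt5a* where the counting did not use strand, which the sources used here do not state. The siBard1 call of *Wnt4* was lost without nt control day 3 replicate 1.

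*Wnt9a* (chr11:59306928-59333552), a ligand known from joint and limb development, was scarcer, at 2.25 and 2.70 CPM in the nt control, 4.48 and 3.77 in siBard1, 4.49 and 3.92 in siWdr5 and 5.59 and 7.10 in siBrca1. Here the siBrca1 libraries were the highest, and no knockdown library overlapped the controls. It rose by 1.35 ± 0.23 with siBrca1 (limma adjusted p = 0.000331), 0.77 ± 0.23 with siWdr5 (adjusted p = 0.0189) and 0.74 ± 0.23 with siBard1 (adjusted p = 0.0461), where the last call was lost in 8 of the alternatives, among them each of the 4 libraries left out. The siWdr5 call of *Wnt9a* was lost without nt control replicate 1 or either siWdr5 library. *Wnt11*, another ligand of the beta-catenin-independent branch, was called with siBrca1, from 1.39 and 1.56 to 2.496 and 4.85 CPM (1.24 ± 0.38, limma adjusted p = 0.0160), a call lost without nt control replicate 1 or siBrca1 replicate 2. Without the latter the value was 0.76. With siWdr5 it stood at 1.82 and 2.39 CPM, also above the controls, and siBrca1 and siWdr5 were not called different (limma adjusted p = 0.207). *Wnt8a* had few reads at day 3, 4 and 10 in the nt control, 1 and 2 in siWdr5, 1 and 0 in siBrca1 and 1 and 3 in siBard1. Its siBrca1 to control ratio was 0.0841 (95% exact binomial interval 0.00199 to 0.553, counting error only), called lower at a limma adjusted p of 0.0409 and lost without either library of either group. *Wnt2b*, *Wnt5b*, *Wnt7b* and *Wnt16* passed the test in none of the 3 comparisons, with log2 differences from −0.46 (*Wnt2b* with siBrca1) to 0.52 (*Wnt7b* with siBard1).

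**Figure D3:**
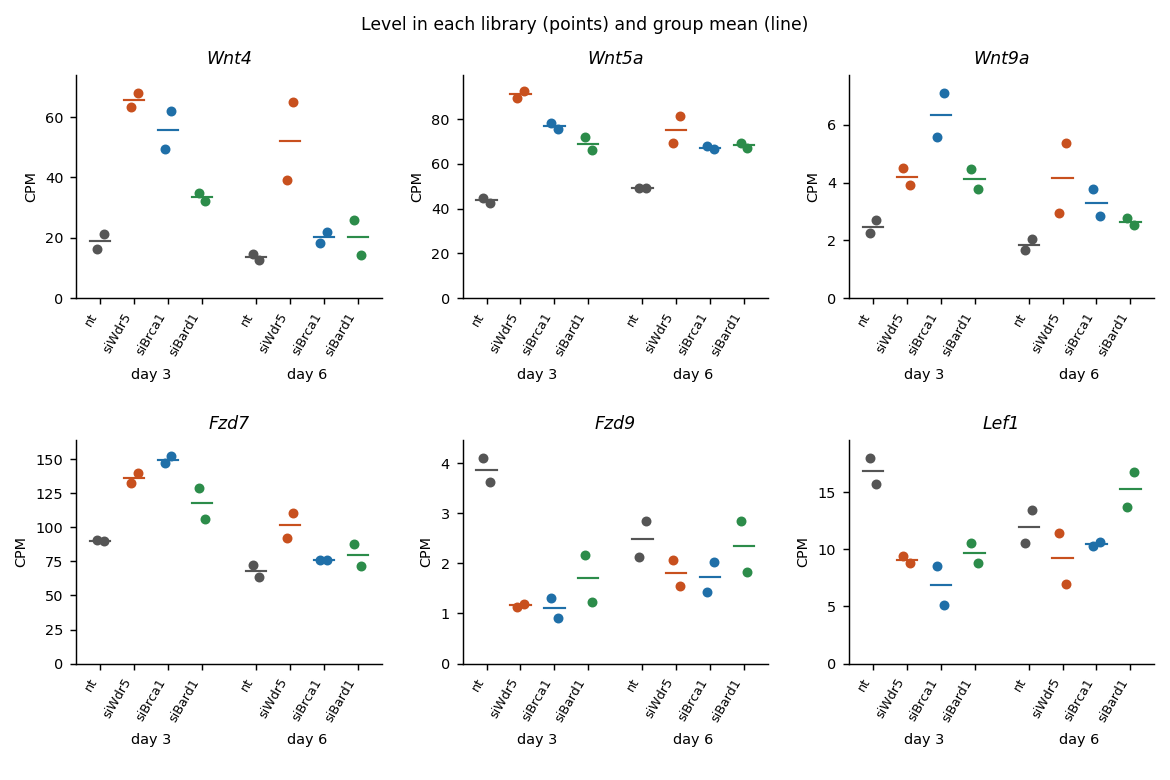
Level in CPM (y axis, from 0) of *Wnt4*, *Wnt5a*, *Wnt9a*, *Fzd7*, *Fzd9* and *Lef1* in each library (points) with the group mean (lines), by siRNA at day 3 and day 6. At day 3 all knockdown libraries lie above the nt control for the 3 ligands and *Fzd7* and below it for *Fzd9* and *Lef1*.

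Of 10 Frizzled genes, 5 rose and 2 fell with siWdr5, 3 rose and 2 fell with siBrca1, and 1 rose and 2 fell with siBard1, where 18.3% and 16.8%, 25.4% and 21.8%, and 8.67% and 5.87% of all genes did. The siBrca1 counts are close to those shares. *Fzd7* (chr1:59482424-59486955), a receptor used in gut and stem cells, rose in all 3, from 90.4 and 90.2 CPM in the nt control to 129 and 107 in siBard1, 132 and 140.3 in siWdr5 and 148 and 152 in siBrca1. The siBard1 libraries lay between the control and the other knockdowns without overlap, and the log2 differences were 0.73 ± 0.11 with siBrca1 (limma adjusted p = 0.000139), 0.59 ± 0.11 with siWdr5 (adjusted p = 0.00113) and 0.38 ± 0.11 with siBard1 (adjusted p = 0.0357). *Fzd9* (chr5:135248938-135251230), a receptor best known from brain and bone, moved the other way, from 4.09 and 3.62 CPM in the nt control to 2.17 and 1.23 in siBard1, 1.13 and 1.198 in siWdr5 and 1.32 and 0.910 in siBrca1. It was among the least abundant receptors, with 60 and 61 reads in the control libraries and 16 and 11 in siBrca1, yet no knockdown library reached the control range. It fell by 3.30-fold with siWdr5 (−1.72 ± 0.34, limma adjusted p = 0.00174), 3.51-fold with siBrca1 (−1.81 ± 0.34, adjusted p = 0.000662) and 2.36-fold with siBard1 (−1.24 ± 0.34, adjusted p = 0.0281). The siBard1 calls of both receptors were lost without either nt control library, that of *Fzd7* also without siBard1 replicate 1 (at 0.24) and that of *Fzd9* without siBard1 replicate 2.

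*Fzd1*, the second of the abundant receptors, rose from 77.9 and 75.8 CPM to 131 and 138 with siWdr5 and 128 and 115 with siBrca1 (0.81 and 0.66), and stood at 104 and 81.0 with siBard1 (0.26, limma adjusted p = 0.164). *Fzd2* shared this pattern, at 0.46 with siWdr5 and 0.76 with siBrca1, with its siWdr5 call, like that of *Fzd8*, lost without any 1 of the 4 libraries. *Fzd4*, the receptor of retinal vessel growth, rose with siWdr5 from 3.63 and 4.07 to 7.72 and 8.56 CPM (1.08 ± 0.26, limma adjusted p = 0.00654), a call lost without nt control replicate 1 or siWdr5 replicate 2, and *Fzd8* rose by 0.53. *Fzd6*, which signals in planar cell polarity (chr15:39006034-39038188), fell with siWdr5 to 4.86 and 4.38 CPM, less than any other day 3 library, from 10.2 and 9.38 in the nt control (−1.08 ± 0.17, limma adjusted p = 0.000364). With siBrca1 it stood at 11.4 and 12.9 and with siBard1 at 8.83 and 8.50. *Fzd5*, a receptor of the canonical branch, fell with siBrca1, from 70.6 and 68.6 to 47.5 and 39.0 CPM (−0.69 ± 0.12, limma adjusted p = 0.000379), and with siBard1, to 46.5 and 52.4 (−0.50 ± 0.12, adjusted p = 0.0153). It was at 58.2 and 57.6 with siWdr5 (−0.27, adjusted p = 0.1001). The siBard1 call of *Fzd5* was lost without either nt control library or siBard1 replicate 1, and a gene on the opposite strand covers 17.8% of its exon bases. *Fzd3* and *Fzd10* passed in none of the 3 comparisons.

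Of 2 Sfrp and 3 Dickkopf genes tested, 2 and 1 rose with siWdr5, 1 and 1 with siBrca1, and 0 and 1 with siBard1. Of all genes, 18.3%, 25.4% and 8.67% rose in that order, and lists this short cannot be set apart from those shares. *Sfrp1* (chr8:23411502-23449632) went from 267 and 298 CPM in the nt control to 551 and 598 with siWdr5, 435 and 331 with siBrca1 and 369.7 and 368 with siBard1. All knockdown libraries were above the controls, and the log2 difference was 1.03 ± 0.13 with siWdr5 (limma adjusted p = 6.91e-05), 0.43 ± 0.13 with siBrca1 (adjusted p = 0.0134) and 0.39 ± 0.13 with siBard1 (adjusted p = 0.0572). The siBrca1 call was lost without nt control replicate 1 or siBrca1 replicate 1, and its value was 0.23 without siBrca1 replicate 1 and 0.21 after quantile normalization. *Sfrp2* (chr3:83766321-83774316), of which 16.1% of the exon bases lie under a gene on the other strand, rose with siWdr5, from 38.1 and 39.8 to 80.5 and 85.8 CPM (1.09 ± 0.29, limma adjusted p = 0.0111), a call lost without nt control replicate 1 or either siWdr5 library. The siBrca1 libraries disagreed on this gene, at 37.9 and 14.3 CPM, and siBard1 stood at 50.2 and 40.7, neither past the test. *Dkk3*, a divergent Dickkopf protein, rose with siWdr5 from 17.5 and 18.4 to 33.7 and 35.8 CPM (0.95 ± 0.12, limma adjusted p = 8.99e-05) and with siBrca1 to 24.8 and 26.9 (0.53 ± 0.12, adjusted p = 0.00314). *Dkk2* (chr3:132085292-132180304), an antagonist that binds Lrp co-receptors, was the member raised by siBard1 and by neither of the others, from 10.4 and 11.5 to 20.4 and 18.3 CPM (0.83 ± 0.18, limma adjusted p = 0.00864), against 14.6 and 10.97 in siBrca1 and 7.66 and 9.29 in siWdr5. That call was lost without nt control replicate 1 or siBard1 replicate 1. *Dkk4* had 0 to 2 reads in every day 3 library.

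Of the genes read out downstream, *Axin2* passed the test in no comparison. It stood at 31.7 and 28.7 CPM in the nt control, 29.2 and 27.3 in siWdr5, 41.5 and 27.9 in siBrca1 and 39.3 and 33.3 in siBard1, and the siWdr5 and siBrca1 libraries overlapped the controls. The log2 differences were −0.10 ± 0.17, 0.17 ± 0.17 and 0.26 ± 0.17 (limma adjusted p of 0.680, 0.409 and 0.303). *Lef1* (chr3:131110471-131224356), a partner of beta-catenin on DNA, fell in all 3, from 18.01 and 15.7 CPM in the nt control to 9.40 and 8.76 in siWdr5, 8.54 and 5.13 in siBrca1 and 10.6 and 8.76 in siBard1. The ranges did not overlap the controls, and siBrca1 held the lowest library, with log2 differences of −0.89 ± 0.22 for siWdr5 (limma adjusted p = 0.00657), −1.34 ± 0.22 for siBrca1 (adjusted p = 0.000238) and −0.80 ± 0.22 for siBard1 (adjusted p = 0.0264). The siBard1 call was lost without any 1 of the 4 libraries and the siWdr5 call without nt control replicate 1 or siWdr5 replicate 2, and 13.7% of the exon bases of *Lef1* lie under a gene on the other strand. *Tcf7* (chr11:52252371-52283014), its relative, fell with siWdr5, from 8.32 and 9.03 to 4.86 and 6.11 CPM (−0.67 ± 0.18, limma adjusted p = 0.0110). That call was lost without either nt control library or siWdr5 replicate 1. *Tcf7* was at 10.2 and 10.6 in siBrca1 (0.27) and 8.62 and 7.77 in siBard1 (−0.08), neither past the test.

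The knockdowns were then set against each other at day 3, where 7 of 27 members passed between siBrca1 and siWdr5 (15.7% of all genes), 7 between siBrca1 and siBard1 (21.4%) and 7 between siWdr5 and siBard1 (8.63%). *Fzd6* separated siWdr5 from both of the others, being lower than in siBrca1 by 2.63-fold (1.39 ± 0.17 for siBrca1 minus siWdr5, limma adjusted p = 0.000223) and than in siBard1 by 1.88-fold (−0.91 ± 0.17 for siWdr5 minus siBard1, adjusted p = 0.00593). *Sfrp1* and *Dkk3* did so in the other direction, being higher in siWdr5 than in siBard1 by 0.64 and 0.64 on the log2 scale and lower in siBrca1 than in siWdr5 by 1.51- and 1.34-fold (limma adjusted p of 0.00839, 0.00713, 0.00678 and 0.0320). *Sfrp2* was 3.57-fold lower in siBrca1 than in siWdr5 (−1.84 ± 0.29, limma adjusted p = 0.00124) and 1.94-fold lower than in siBard1 (adjusted p = 0.0332). Both values rested on siBrca1 replicate 2, and without it they were −1.13 and −0.25 on the log2 scale, while without siBrca1 replicate 1 the second was −1.66. *Tcf7* was higher in siBrca1 than in siWdr5 by 0.94 ± 0.18 (limma adjusted p = 0.00369). *Dkk2* was −0.61 for siBrca1 minus siBard1 and 0.58 for siBrca1 minus siWdr5, calls kept in 8 and 7 of 15 alternatives, and the values were −0.41 without siBrca1 replicate 2 and 0.38 without siBrca1 replicate 1. For siWdr5 minus siBard1 it was −1.20 ± 0.18 (limma adjusted p = 0.00122). *Wnt4* was lower in siBard1 than in siWdr5 by 1.96-fold and than in siBrca1 by 1.66-fold (limma adjusted p of 0.00151 and 0.00587). *Wnt5a* was 0.40 higher in siWdr5 than in siBard1 (limma adjusted p = 0.0293). *Wnt11* was higher in siBrca1 than in siBard1 by 1.27, and *Fzd1*, *Fzd2* and *Fzd7* by 0.40, 0.45 and 0.35. *Fzd1* was also higher in siWdr5 than in siBard1 by 0.55, and *Fzd5* was lower in siBrca1 than in siWdr5 by 1.35-fold. Without siBard1 replicate 2 the siBrca1 minus siBard1 values were 0.78 for *Wnt11*, 0.22 for *Fzd1*, 0.22 for *Fzd2* and 0.21 for *Fzd7*. *Fzd2* was 0.67 without siBard1 replicate 1, and *Wnt11* was 0.80 without siBrca1 replicate 2. Of these calls, *Fzd6* and *Sfrp2* between siBrca1 and siWdr5, and *Dkk2* and *Wnt4* between siWdr5 and siBard1, were kept as calls with each library left out in turn. The siBrca1 to siBard1 count was 13 without siBrca1 replicate 1, 3 without siBrca1 replicate 2 and 0 without siBard1 replicate 2. The share of called genes higher in the first-named group was 65.0% for siBrca1 against siWdr5 (54.3% after centring on the median gene), 61.2% for siBrca1 against siBard1 (51.3% after quantile normalization) and 56.2% for siWdr5 against siBard1 (69.9% after centring). All 5 proliferation markers were lower in siBrca1 than in siBard1, and their part in these differences was not tested. Between siBrca1 and siWdr5 the count of members was 11 without siBrca1 replicate 1, 2 without siWdr5 replicate 1 and 3 without siWdr5 replicate 2, and between siWdr5 and siBard1 it was 2 without either siWdr5 library or siBard1 replicate 2.

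**Figure D4:**
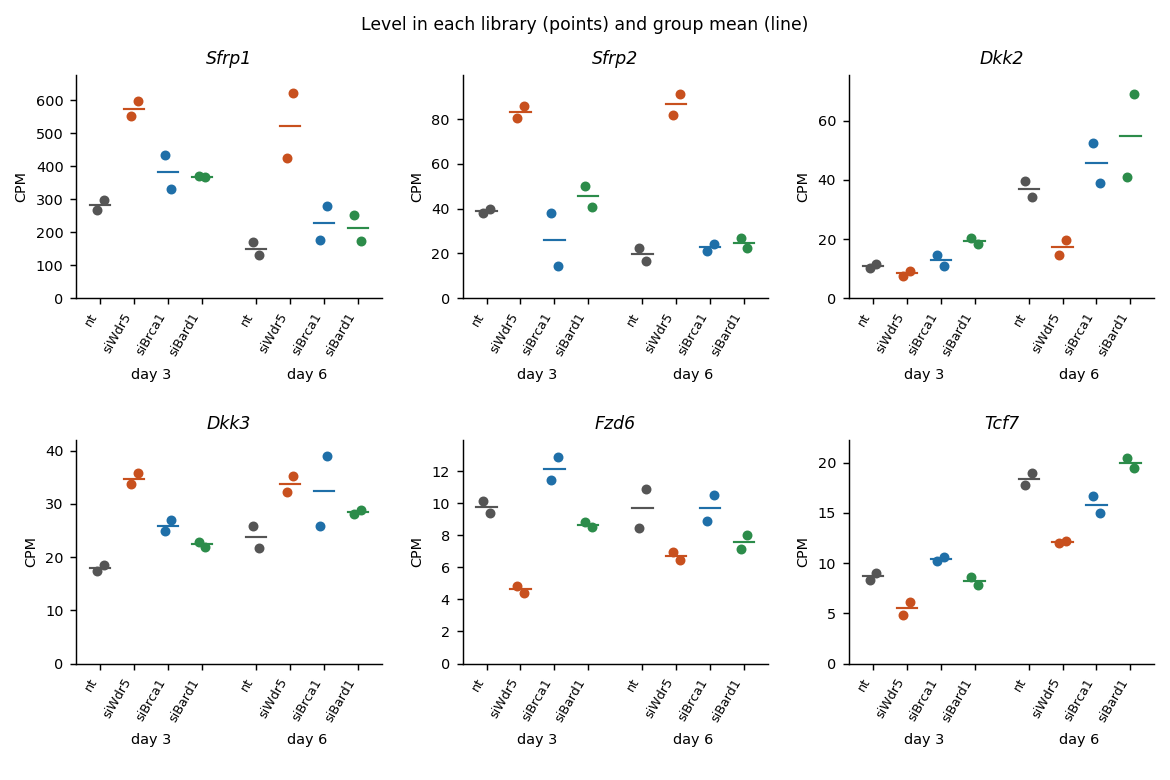
Level in CPM (y axis, from 0) of *Sfrp1*, *Sfrp2*, *Dkk2*, *Dkk3*, *Fzd6* and *Tcf7* in each library (points) with the group mean (lines), by siRNA at day 3 and day 6. The siWdr5 libraries are the highest for *Sfrp1*, *Sfrp2* and *Dkk3* and the lowest for *Dkk2*, *Fzd6* and *Tcf7* at day 3, and *Sfrp1* and *Sfrp2* stay highest with siWdr5 at day 6.

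At day 6, siWdr5 still had 9 members higher and 4 lower than the nt control, against 16.1% and 5.7% of all genes. The share of higher calls over all genes, 73.9%, depended on scaling and was 63.0% with libraries centred on the median gene and 55.3% after quantile normalization. In siBrca1, whose libraries differed most, and siBard1 no member passed, where 0% and 0.0784% of all genes did. An unadjusted limma p under 0.05 was found for 5 and 6 members, and for 1123 and 1908 of the 14028 genes tested. Among the 27 members tested, *Sfrp2* had the largest rise with siWdr5, from 22.5 and 16.6 CPM in the nt control to 81.9 and 91.3, against 21.3 and 24.3 in siBrca1 and 26.9 and 22.5 in siBard1. The siWdr5 libraries stood apart from all others, at 4.48-fold (2.16 ± 0.17, limma adjusted p = 0.000841), and it was the 1 member still called without siWdr5 replicate 2. *Wnt4* stood at 39.2 and 64.9 CPM against 14.7 and 12.8 (1.88 ± 0.29, limma adjusted p = 0.00394). *Sfrp1* stood at 424 and 621 against 169 and 131 (1.78 ± 0.26, limma adjusted p = 0.00362). In both, siWdr5 replicate 2 was the higher library and both lay above the control. *Fzd4*, *Wnt9a*, *Fzd1*, *Fzd8*, *Wnt5a* and *Fzd7* also rose, by 1.34, 1.11, 1.08, 0.72, 0.61 and 0.58 on the log2 scale. *Wnt9a* was at 0.69 without siWdr5 replicate 2 and *Fzd7* at 0.38 after quantile normalization. For *Wnt5a* the values were 49.1 and 49.3 CPM in the nt control, 69.1 and 81.2 in siWdr5, 67.9 and 66.5 in siBrca1 and 69.5 and 67.0 in siBard1, each knockdown library above the controls, with limma adjusted p of 0.00851, 0.396 and 0.156 in that order.

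The members lower with siWdr5 at day 6 were *Dkk4*, *Wnt8a*, *Dkk2* and *Tcf7*. All 4 were also among the members higher at day 6 than at day 3 in the nt control. For *Dkk4* and *Wnt8a*, which passed the filter only through day 6, that difference was built into their selection. The comparison over time also uses the same nt control day 6 libraries, and each of the 4 calls was lost without either of these libraries. *Dkk4*, a target of the pathway that also inhibits it, stood at 2.69 and 5.06 CPM against 13.0 and 8.83 (−1.54 ± 0.37, limma adjusted p = 0.0179), with 6.81 and 6.95 in siBrca1 and 6.83 and 3.39 in siBard1. *Wnt8a*, an embryonic ligand of the canonical branch, stood at 4.48 and 4.87 CPM against 10.5 and 10.0 (−1.14 ± 0.21, limma adjusted p = 0.00796). *Dkk2* stood at 14.7 and 19.8 CPM against 39.5 and 34.3 (−1.11 ± 0.25, limma adjusted p = 0.0132), and 52.6 and 39.0 in siBrca1 and 41.0 and 68.9 in siBard1. *Tcf7* stood at 12.0 and 12.2 CPM against 17.7 and 19.0, with close replicates (−0.60 ± 0.14, limma adjusted p = 0.0174). *Lef1* was at 10.5 and 13.5 CPM in the nt control, 11.4 and 7.01 in siWdr5, 10.3 and 10.7 in siBrca1 and 13.7 and 16.8 in siBard1. *Axin2* was in the same order at 39.0 and 48.1, 45.9 and 68.4, 36.4 and 51.0 and 50.4 and 42.0. The siBard1 libraries of *Lef1* lay just above the controls, all other ranges overlapped, and no difference was called. The 13 calls of siWdr5 became 4 without either nt control library, namely *Sfrp1*, *Sfrp2*, *Wnt4* and *Fzd1*, and 1 without siWdr5 replicate 2. Without siWdr5 replicate 1, *Dkk2*, *Dkk4* and *Tcf7* were lost. Fibroblast markers summed to 4629.6 to 4820.1 CPM in the nt control and 8953 to 12278 in siWdr5 (5 of 7 higher), epithelial markers to 592 to 793 and 409.9 to 525 (4 of 7 lower), and pluripotency markers to 154 to 166 and 45.9 to 134 (0 of 5 called). Of these lists no marker was at 3 or fewer reads in both libraries at day 6, and their part in the members' differences was not tested.

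In the nt control, 6 members were higher and 8 lower at day 6 than at day 3. These were 22.2% and 29.6% of those tested, near the 19% and 27.1% of all genes. *Dkk4* had 1 and 1 reads in the day 3 libraries and 161 and 109 at day 6, a CPM ratio of 176 (95% exact binomial interval 48.3 to 1463, counting error only). *Wnt8a* rose from 0.400 and 0.707 to 10.5 and 10.0 CPM, a ratio of 23.7 (13.9 to 43.9). *Wnt7b*, a ligand of epithelia, had 5 and 6 reads at day 3 and 33 and 69 at day 6, a ratio of 12.1 (6.49 to 25.01). These 3 were near the floor at day 3 and entered the test through day 6, so that a difference was built into their selection. *Dkk2* was well measured on both days and rose from 10.4 and 11.5 to 39.5 and 34.3 CPM (1.75 ± 0.23, limma adjusted p = 2.58e-05). *Tcf7* rose from 8.32 and 9.03 to 17.7 and 19.0 CPM (1.08 ± 0.15, limma adjusted p = 4.37e-05), and *Wnt5b* from 2.77 and 3.44 to 7.33 and 5.48 (1.04 ± 0.24, adjusted p = 0.00213). *Axin2* went from 31.7 and 28.7 to 39.0 and 48.1 CPM without overlap (0.52 ± 0.21, limma adjusted p = 0.0554), *Wnt5a* from 44.9 and 42.5 to 49.1 and 49.3 (0.17, adjusted p = 0.186) and *Lef1* from 18.01 and 15.7 to 10.5 and 13.5 (−0.50, adjusted p = 0.109), none past the test.

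The 8 members that fell over time were 5 Frizzled genes, both Sfrp genes tested and *Wnt2b*. *Fzd4* fell from 3.63 and 4.07 to 1.34 and 1.33 CPM (−1.53 ± 0.28, limma adjusted p = 0.000406), the largest fall among those tested. *Sfrp2* fell from 38.1 and 39.8 to 22.5 and 16.6 CPM (−1.01 ± 0.29, limma adjusted p = 0.00988) and *Fzd5* from 70.6 and 68.6 to 33.2 and 37.4 (−0.98 ± 0.14, adjusted p = 5.01e-05). *Sfrp1*, *Wnt2b*, *Fzd3*, *Fzd8* and *Fzd7* fell by 1.89-, 1.75-, 1.58-, 1.39- and 1.33-fold. The call was lost for *Fzd3* without nt control day 3 replicate 1 or nt control day 6 replicate 1, for *Fzd7* without nt control day 3 replicate 1, nt control day 3 replicate 2 or nt control day 6 replicate 2, for *Fzd8* without nt control day 3 replicate 1, nt control day 3 replicate 2 or nt control day 6 replicate 2, for *Sfrp2* without nt control day 3 replicate 2 or nt control day 6 replicate 2 and for *Wnt2b* without nt control day 3 replicate 2. All 14 called members had day 3 and day 6 control libraries that did not overlap. The same libraries gave the calls, and the share of all genes without overlap was not computed. Summed per kilobase, Dickkopf genes went from 8.34 ± 0.404 to 26.0 ± 4.18 CPM per kb, Sfrp genes from 82.8 ± 5.69 to 43.8 ± 8.10 and ligands from 16.8 ± 1.26 to 23.9 ± 0.561. Over the same days 6 of 7 epithelial markers and all 5 pluripotency markers tested rose, while 3 of 7 fibroblast markers fell and 2 rose, and their part in these changes was not tested.

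**Figure D5:**
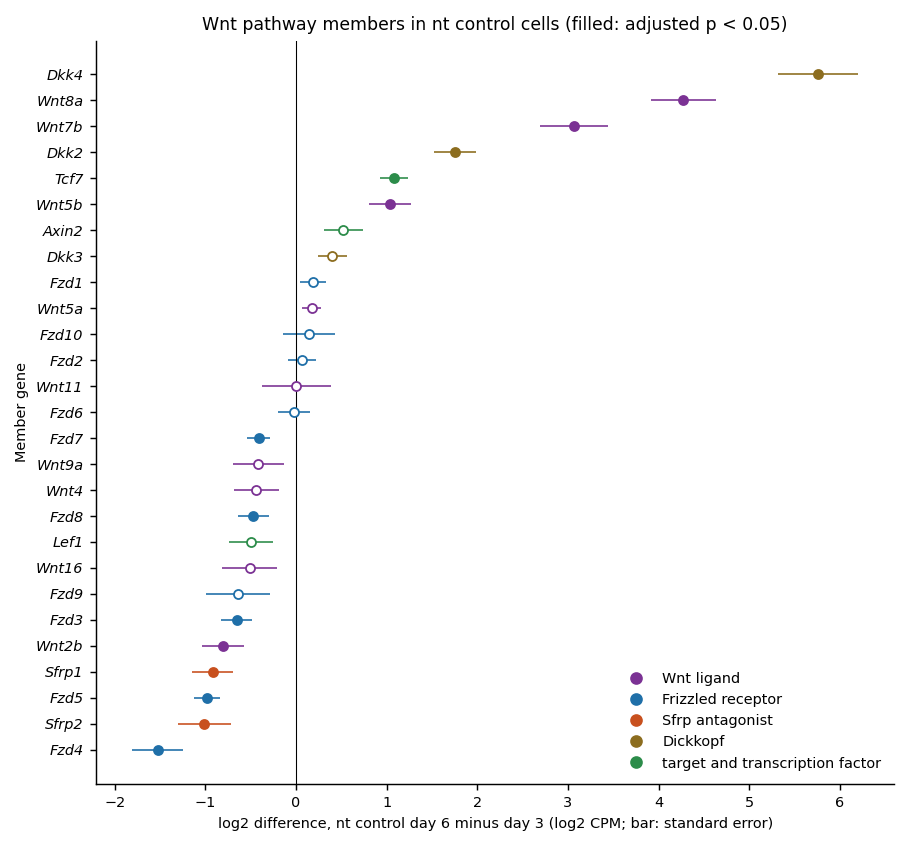
Difference between nt control day 6 and day 3 on the log2 CPM scale (x axis, bars are standard errors) for the 27 members tested (y axis, in order of the difference), coloured by role and filled at an adjusted p under 0.05. *Dkk4*, *Wnt8a*, *Wnt7b* and *Dkk2* lie farthest to the right and *Fzd4*, *Sfrp2* and *Fzd5* farthest to the left.

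Among members under the filter, *Dkk1* had 3 and 3 reads in the nt control at day 3 and 27 and 25 at day 6 (CPM ratio 11.3, 4.86 to 32.2). *Wnt6*, a ligand of epithelia, had 5 and 4 and 34 and 70 (ratio 15.1, 7.65 to 33.9). Its neighbour *Wnt10a*, 6193 bases away on chromosome 1, had 5 and 1 and 7 and 8. *Wnt2* went the other way, from 15 and 15 reads to 2 and 1, and had 16 and 38 reads in siWdr5 at day 6, a ratio to the nt control of 11.1 (3.59 to 55.4). In a fit without the filter, the knockdown comparisons called 2 of these 7 members, *Wnt2* higher with siWdr5 at day 6 (limma adjusted p = 0.0159) and *Wnt6* lower with siBrca1 at day 3 (adjusted p = 0.0453), the latter on 1 and 1 reads, a ratio of 0.262 (0.0275 to 1.26). *Wnt7a* had 6 and 27 reads in siWdr5 and 3 and 1 in the nt control at day 6, a ratio of 5.08 (1.81 to 19.7, limma adjusted p = 0.0684). For *Wnt2*, the siBard1 libraries of day 6 held 7 and 45 reads and so disagreed. *Sfrp4*, *Wnt7a* and *Wnt10b* had at most 37, 27 and 17 reads in any library. All intervals here are 95% exact binomial and cover counting error only.

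Whether a knockdown acted differently at the 2 days was tested as the day 6 change minus the day 3 change. With siBrca1 the difference passed for 2 members in each direction, or 7.41% of those tested, against 10.3% of all genes in each direction. *Lef1* and *Fzd5* were lower than the nt control at day 3 and did not pass at day 6 (differences of 1.16 ± 0.35 and 0.84 ± 0.20, limma adjusted p of 0.0283 and 0.00949), and *Fzd2* and *Fzd7* were higher at day 3 and did not pass at day 6 (−0.73 ± 0.22 and −0.57 ± 0.18, adjusted p of 0.0302 and 0.0350). The count was 9 without siBrca1 day 3 replicate 1 and 0 without its replicate 2. It was 1 without nt control day 3 replicate 2, nt control day 6 replicate 1 or siBrca1 day 6 replicate 2, and 2 without nt control day 3 replicate 1 or siBrca1 day 6 replicate 1. All 5 proliferation markers had a positive difference past the test in the same comparison, and their part was not tested. With siWdr5 and siBard1 no member passed in limma, where 4.43% and 0.0499% of all genes did. An unadjusted p under 0.05 was found for 7 and 3 members, and for 3323 and 2694 of the 14028 genes tested. For siWdr5 the median over all genes was 0.12, or −0.02 with libraries centred on the median gene, and the share of called genes with a positive difference was 76.7%, 33.5% after centring and 45.8% after quantile normalization. For siBard1 that share was 42.9% of 7 genes and 22.9% after centring. Among the members with an unadjusted p under 0.05 for siWdr5, *Sfrp2* and *Fzd9* gave 1.07 ± 0.41 (limma adjusted p = 0.130) and 1.26 ± 0.49 (adjusted p = 0.134), and *Wnt5a* gave −0.45 ± 0.15 (adjusted p = 0.0800).

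The other genes of the pathway were taken from a list of 52 genes by role, of which 49 were in the table and 44 were tested. At day 3, 14 rose and 3 fell with siWdr5, 17 rose and 3 fell with siBrca1, and 4 rose and 1 fell with siBard1. Of all genes, 18.3% and 16.8%, 25.4% and 21.8%, and 8.67% and 5.87% did, so that the shares of the list in both directions together lay near those of all genes. The list had medians of 0.25, 0.25 and 0.07 on the log2 scale. *Wls*, the carrier that takes Wnts to the cell surface, rose in all 3, from 122 and 123 CPM in the nt control to 207 and 251 in siWdr5, 212 and 253 in siBrca1 and 199 and 210.4 in siBard1 (0.90 ± 0.12, 0.92 ± 0.12 and 0.74 ± 0.12, limma adjusted p of 0.000105, 4.79e-05 and 0.00157). Every knockdown library lay above both controls. *Rspo2*, a secreted enhancer of Wnt signals, and *Rnf43*, a ubiquitin ligase that removes Frizzleds, also rose in all 3, *Rspo2* by 1.27, 1.38 and 1.30 and *Rnf43* by 1.06, 1.42 and 1.24. *Znrf3*, the relative of *Rnf43*, fell with siWdr5 and siBrca1 (−0.33 and −0.42). Of surface receptors other than Frizzleds, *Ror1* and *Ptk7* rose with siWdr5 (0.89 and 0.53) and *Ryk* and *Ptk7* with siBrca1 (0.67 and 0.54), with no member of this role lower. Of the cytoplasmic transducers, *Gsk3b* and *Dvl3* rose with siWdr5 (0.43 and 0.42) and with siBrca1 (0.44 and 0.53), and none of 10 passed with siBard1.

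*Draxin*, a secreted antagonist better known from axon guidance, rose with siWdr5 from 18.3 and 17.6 to 89.3 and 92.2 CPM at day 3 (2.34 ± 0.13, limma adjusted p = 4.47e-07) and stood at 137 and 171 against 41.0 and 42.9 at day 6 (1.87 ± 0.18, adjusted p = 0.00144). At day 3 it also rose with siBrca1, to 26.8 and 32.3 CPM (0.71, adjusted p = 0.000528), and was at 22.2 and 19.5 with siBard1. *Apcdd1*, a membrane inhibitor, fell with siWdr5 and siBrca1 (−0.61 and −0.90). Of 7 targets and feedback genes, *Nkd1*, an inhibitor of Dvl proteins, rose with siWdr5 and siBrca1 (1.25 and 1.46), *Nkd2* rose with siBrca1 and siBard1 (1.65 and 0.62), and *Sp5* was called lower with siBrca1, on 10 and 1 reads (0.874 and 0.207 CPM against 3.10 and 2.19). At day 6 the list had 14 higher and 2 lower with siWdr5, against 16.1% and 5.7% of all genes, and none called with siBrca1 or siBard1, where 0 and 11 genes of the whole table passed. Of 6 nuclear partners of beta-catenin, 5 rose with siWdr5 at day 6, led by *Pygo1* and *Bcl9l* (1.55 and 0.87). In the nt control, 12 rose and 14 fell from day 3 to day 6, against 19% and 27.1% of all genes. *Notum*, an enzyme that strips the lipid from Wnts, rose from 14.2 and 13.3 to 55.1 and 53.2 CPM (1.98 ± 0.15, limma adjusted p = 4e-07), with *Porcn*, which adds that lipid, higher by 1.49. *Frzb* and *Wif1*, further antagonists, rose by 2.24 and 1.38, *Ascl2* and *Sp5* by 2.42 and 1.62, and *Ctnnb1*, which encodes beta-catenin, by 0.48, while *Apc* and *Axin1* of its destruction complex fell by 1.76- and 1.37-fold.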

How the data were processed

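Per the labels and the study's methods, total RNA was depleted of ribosomal RNA and sequenced, and the submitters' processing notes name STAR 2.5.2b, edgeR 3.20.9 and the mouse genome GRCm38 (mm10). The authors deposited 1 table of log2 CPM (counts scaled to library size on a log2 scale, with a small prior added) for 18990 genes in 16 libraries. The read counter, the annotation, the strand setting and the limit of the authors' low-count filter are not given in the sources used here. Low values stepped by whole reads in every library, so reads per gene were recovered, and CPM values here are 2 to the power of the deposited value and hold the prior of 0.136 CPM.

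The 14028 genes whose log2 CPM averaged 0 or more across libraries were fitted with limma 3.58.1 in R 4.3.3, with a trend on mean expression, two-sided tests and Benjamini-Hochberg adjustment over all genes tested, and a gene was called at an adjusted p under 0.05. Comparisons within a day used the 8 libraries of that day, and the time course and differences between days used all 16. The same functions were tested on simulated data. With 2 libraries per group, p-values measure only the spread between these libraries. Members and lists were chosen with earlier results of these data known. Every member could be named. Full values were given for *Axin2*, *Lef1*, *Tcf7*, *Wnt5a* and the 3 largest rises and falls per comparison that moved alike in both same-numbered pairs, and of the pathway list up to 2 in each direction per role. Levels per kilobase used exon lengths of GENCODE vM21, which also gave the gene coordinates (GRCm38) and the opposite-strand overlaps, and all 34 members matched it by identifier. Promoter windows came from RefSeq (GRCm38.p6). Alternatives were other pseudocounts, filters, scalings and sets of libraries, a fold limit, no trend, the replicate number as a block, voom on recovered reads, and each library left out in turn.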

Additional observations from a re-analysis of the deposited data

Results flagged for a closer look

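For 4 members the change with siBrca1 differed between the days, tested in limma as the day 6 change minus the day 3 change (an interaction over all 16 libraries), against 10.3% of all genes in each direction. The 4 made up 7.41% of the members tested in each direction, no more than among all genes. Without siBrca1 day 3 replicate 2 the count was 0. The value was 1.16 for *Lef1*, which stood at 8.54 and 5.13 CPM against 18.01 and 15.7 in the nt control at day 3 and at 10.3 and 10.7 against 10.5 and 13.5 at day 6. For *Fzd5* it was 0.84, from 47.5 and 39.0 against 70.6 and 68.6 CPM to 39.8 and 38.1 against 33.2 and 37.4. In the other direction it was −0.73 for *Fzd2*, from 59.1 and 52.0 against 33.2 and 32.1 CPM to 34.7 and 35.3 against 38.0 and 30.8, and −0.57 for *Fzd7*, from 148 and 152 against 90.4 and 90.2 to 76.4 and 75.8 against 72.3 and 63.8. *Fzd5* kept its call in 17 of 18 alternatives and lost it without siBrca1 day 3 replicate 2 (adjusted p = 0.0538). *Lef1*, *Fzd2* and *Fzd7* kept theirs in 12, 10 and 11 of 18. With groups of 2 libraries no test for an outlying library was made.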

How the results depend on the processing

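Of 88 calls of a member in a comparison, 33 were kept in every alternative run, 55 were lost in at least 1 and 0 changed direction. Of 152 counts of called members over the 13 comparisons under alternatives other than leaving out a library, 126 stayed within 1.5 times the main count. With a log2 difference above 1 also required, the counts were 7 with siWdr5, 6 with siBrca1 and 1 with siBard1 at day 3, 8 over time in the nt control, 1 for the siBrca1 difference between days, 2 between siBrca1 and siWdr5, 1 between siBrca1 and siBard1 and 1 between siWdr5 and siBard1. Without the filter on low values they were 4 with siBard1 at day 3 and 1 between siBrca1 and siBard1. Without the trend they were 3 with siBard1 at day 3, 2 for the siBrca1 difference between days, 3 between siBrca1 and siWdr5, 0 between siBrca1 and siBard1 and 4 between siWdr5 and siBard1. With all 16 libraries they were 1 with siBard1 at day 6, 3 between siBrca1 and siWdr5 and 2 between siBrca1 and siBard1. With only the libraries compared they were 5 and 2 for the siWdr5 and siBard1 differences between days, 4 between siBrca1 and siWdr5, 1 between siBrca1 and siBard1 and 12 between siWdr5 and siBard1. The siWdr5 difference between days was 1 after centring and 1 after quantile normalization. Why these counts moved was not tested. With 1 CPM added before the log, the log2 difference was −1.20 for *Fzd9* and −0.40 for *Wnt8a* with siBrca1 at day 3 and 3.29 for *Dkk4* and 1.77 for *Wnt7b* over time. With voom on recovered reads *Wnt8a* was −2.76, and after quantile normalization *Fzd7* was −0.19 over time and 0.23 for siBrca1 minus siBard1.

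Leaving out each library in turn gave 8 to 12 members with siWdr5, 10 to 15 with siBrca1 and 1 to 6 with siBard1 at day 3, 1 to 11 with siWdr5, 0 with siBrca1 and 0 with siBard1 at day 6, 10 to 13 over time, 0 for siWdr5, 0 to 9 for siBrca1 and 0 to 1 for siBard1 between days, 2 to 11 between siBrca1 and siWdr5, 0 to 13 between siBrca1 and siBard1 and 2 to 7 between siWdr5 and siBard1. Where a group was left with 1 library, that library was assumed to vary like the others. The sources used here do not say whether a replicate number marks an experiment shared between groups, and same-numbered libraries were not treated as pairs: replicate differences correlated between groups at −0.0931 to 0.0721 on day 3 and −0.0696 to 0.2602 on day 6. With the replicate block the counts were 15, 14 and 9 with siWdr5, siBrca1 and siBard1 at day 3, 15 with siWdr5 at day 6, 15 over time, 5 and 1 for the siBrca1 and siBard1 differences between days, and 7, 9 and 9 between siBrca1 and siWdr5, siBrca1 and siBard1, and siWdr5 and siBard1.

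With 2 libraries per group and reads down to 11169738 per library, the members under the filter rest on few reads, and a difference that missed the threshold is not shown to be absent.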
